A study of Homo sapiens with 13 samples.

Results

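The genes of DNA replication and repair were examined as a group of 47 listed symbols, of which 37 encode replication machinery and 10 encode repair and checkpoint proteins. All 47 were found by symbol or RefSeq accession among the 24875 genes of the Silvestrol table and the 13121 genes of the INK128 table. All 47 were also among the 10507 genes kept by the expression filter of the Silvestrol experiment. ORC1 to ORC6 and CDC45 are listed under their older symbols there and were matched by accession.

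MDA-MB-231, an established human line of ductal breast carcinoma, was profiled by sequencing of ribosome footprints (RFs), the mRNA fragments protected by translating ribosomes. Untreated cells gave 1 RF library, and 1 h or 2 h of DMSO or of Silvestrol at 25 nM, an inhibitor of the RNA helicase eIF4A, gave the others. The 2 h treatments were done at passages 3 and 4, which gave 2 RF libraries per treatment, and mRNA was sequenced at 2 h in 1 passage 3 library per treatment. A separate passage 3 experiment compared DMSO with 200 nM INK128, an inhibitor of the kinase mTOR, for 2 h, with 1 RF and 1 total RNA library per treatment. All groups are of this 1 line, and no group carries a genetic change. The labels of a pair of libraries disagree with themselves. The passage 3 Silvestrol RF library at 2 h has a treatment field that says 1 h, and the DMSO mRNA library has one that says untreated. Both were grouped by their titles. The table's control mRNA values name no treatment and were assigned to the DMSO library, the one mRNA sample without a drug.

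Before DNA is copied, the origin recognition complex marks origins, and CDC6 and CDT1 load the MCM helicase there. CDC45 and the GINS complex then join the helicase, primase and polymerases start synthesis, and the clamp PCNA is placed by its loader, replication factor C. RPA coats the exposed single strands, and checkpoint kinases and repair proteins respond where copying stalls or strands break.

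Counted reads ranged from 2652423 in the passage 4 Silvestrol RF library to 50315607 in the DMSO mRNA library. Of the markers of the line, VIM lay between 4789 and 7031 RF RPKM (reads scaled to counted length and library size) in the 7 RF libraries, and ESR1 was at 0 in every library. CD3E, which marks lymphocytes, was also at 0 in every library. CD44 and KRT18, expected in the line, lay between 138 and 344 and between 47.4 and 95.4 RF RPKM. KRT8, also expected, ranged from 0 to 22.3 RF RPKM and from 0 to 21.5 mRNA RPKM. ERBB2, expected to be low, was at 1.63 to 4.05 RF RPKM but at 18.7 to 25.8 mRNA RPKM. PECAM1, which marks endothelial cells, was at 0 RF RPKM and at 0.83 to 0.86 mRNA RPKM. The RPKM values of Silvestrol libraries had a median log2 change of -0.18 at 1 h, and of -0.17 and -0.15 at 2 h in passages 3 and 4, over all genes tested. The edgeR fit, scaled by TMM, had a median of -0.01, so an RPKM change is to be read against those medians and a fitted change against 0.

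A sequence feature that the choice of members did not use was found in part of their promoters. The E2F-type motifs TTTGGCGC, TTTCGCGC, TTTCCCGC and TTTGCCGC were searched on both strands in RefSeq promoter windows from 250 bases before to 50 bases after the start (GRCh38.p14). At least 1 of them was found in 17 of 41 member promoters with a window (41.5%), in 5.75% of the 8624 promoters of tested genes, and in 3.33% of all 27305 promoters. Among the replication genes 15 of 32 promoters held one, and among the repair genes 2 of 9, those of MSH6 and XRCC6. The windows below lie wholly before the start, read 5′ to 3′ on the strand of the gene, and the capitals mark the motif or its reverse complement. They are shown as the members with such a window. With the passage as a block in the test at 2 h, CDT1 and MCM3 of these 9 were called with more RFs (against 25.0% of all genes), MCM7 with fewer (against 28.1%), and the other 6 were not called. Without the block none of the 9 was called.
CDT1, chr16:88803743-88803772, plus strand: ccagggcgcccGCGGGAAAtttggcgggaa
GINS2, chr16:85688967-85688996, minus strand: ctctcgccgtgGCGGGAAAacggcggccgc
LIG1, chr19:48170440-48170469, minus strand: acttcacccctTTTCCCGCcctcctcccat
MCM3, chr6:52284898-52284927, minus strand: cggatggtacgTTTCCCGCcaccgcggggc
MCM6, chr2:135876511-135876540, minus strand: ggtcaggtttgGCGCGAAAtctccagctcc
MCM7, chr7:100101566-100101595, minus strand: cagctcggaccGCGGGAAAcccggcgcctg
PCNA, chr20:5126663-5126692, minus strand: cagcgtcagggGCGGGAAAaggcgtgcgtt
POLA1, chrX:24693770-24693799, plus strand: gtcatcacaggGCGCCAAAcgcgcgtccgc
RFC3, chr13:33818083-33818112, plus strand: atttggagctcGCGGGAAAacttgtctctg
In MCM6 the marked motif overlaps a second one that starts 90 bases before the start. A match of letters is a description of the window and not a measured binding site.

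Which of these genes lost or gained RFs when eIF4A was inhibited was asked first at 2 h, the contrast with replicates. GINS1, a subunit of the GINS complex, and CDC6, the helicase loader, fell, and no member rose, by edgeR's quasi-likelihood test with an adjusted p under 0.05. These 2 of 47 members (4.26%) with fewer RFs stand beside 7.73% of all genes tested, and the 0 members with more RFs beside 2.22%. Unadjusted p-values under 0.05 were found for 14 of 47 members and for 3291 of 10507 genes in the same edgeR test, and DESeq2 called 3 members with more RFs (against 5.64% of all genes with an adjusted p). When the passage entered the edgeR fit as a block, 11 members were called with fewer RFs (23.4%, against 28.1% of all genes) and 17 with more (36.2%, against 25.0% of all genes). The DMSO and Silvestrol libraries at 2 h carry the same passage numbers, so both fits are given. With 2 pairs of libraries, the blocked fit has little spread of a gene's own to use, and edgeR shares the spread over genes. Its adjusted p-values therefore rest largely on that shared spread and less on the likeness of the pairs. XRCC6, with log2 ratios of 1.38 in passage 3 and -0.53 in passage 4, was still called higher by it (edgeR adjusted p = 0.024). Leaving out either 2 h Silvestrol library left 0 members called without the block, with log2 changes of -1.41 and -1.36 for GINS1 and -0.87 and -1.03 for CDC6. Such fits assume that the treatment left with 1 library varies like the other. In these bulk libraries, fewer cells of a kind (such as cells in S phase) and less RNA per cell cannot be told apart.

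**Figure D1:**
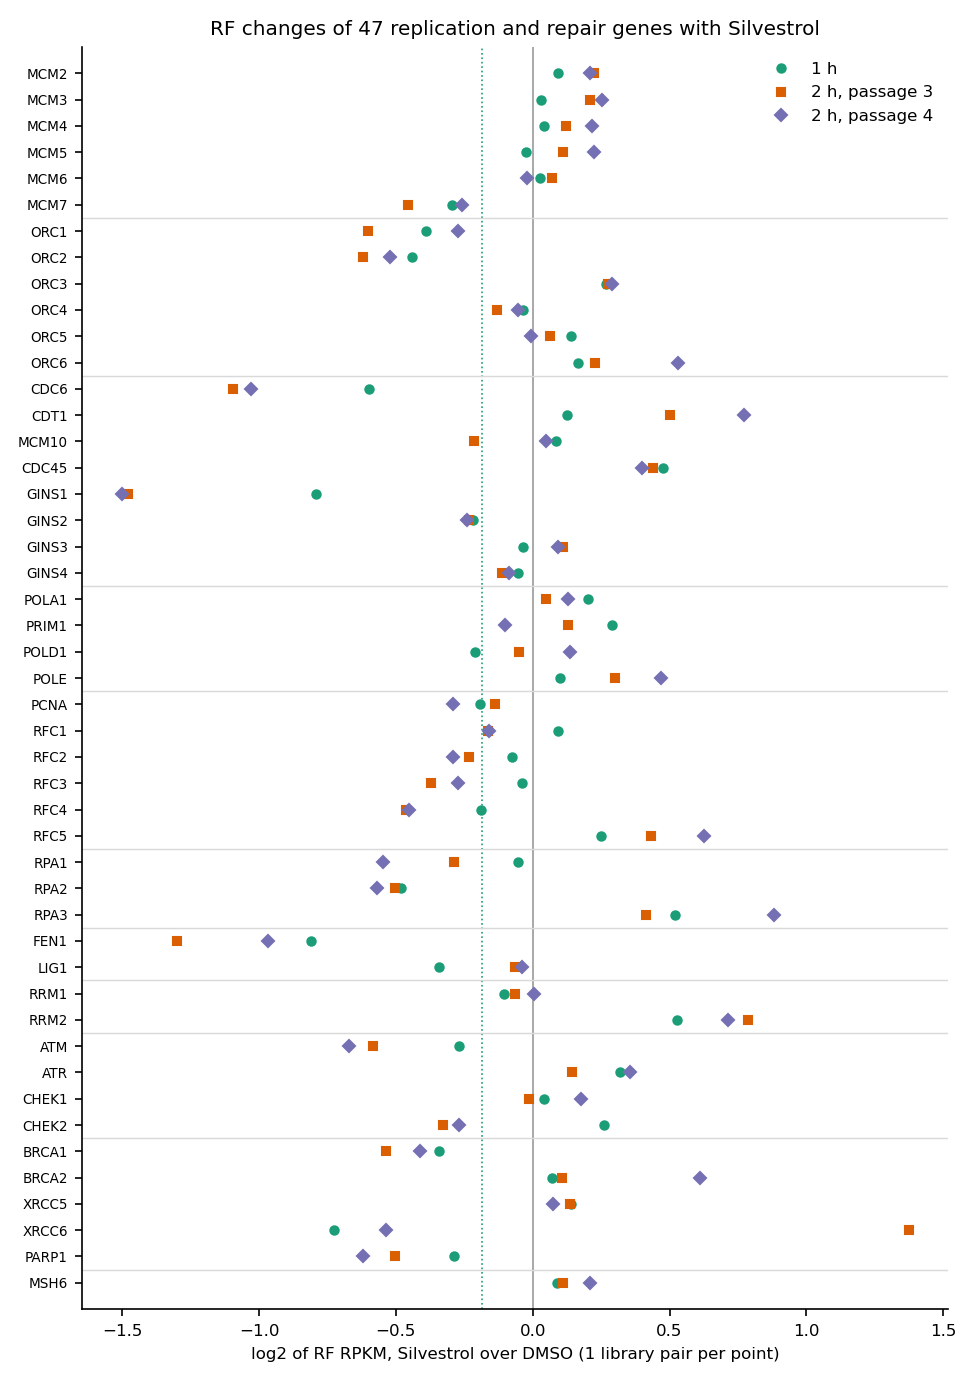
Log2 change of RF RPKM with Silvestrol over DMSO for each of the 47 genes (1 row per gene, ordered by complex, with lines between complexes). Each point is 1 pair of libraries at 1 h, at 2 h in passage 3 or at 2 h in passage 4, the solid line is 0 and the dotted line is the median of all genes at 1 h (-0.18). GINS1 and CDC6 lie at the left in all 3 pairs, and RRM2, RPA3 and CDC45 lie at the right in all 3.

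Of the genes that load and activate the helicase, GINS1 (hg19 chromosome 20, 25388322 to 25429191) changed most. Its RF level was 101, 87.3, 90.3 and 95.5 RPKM in the untreated, DMSO 1 h, and DMSO 2 h passage 3 and passage 4 libraries. With Silvestrol it was 50.4 RPKM at 1 h, and 32.3 and 33.7 RPKM at 2 h in passages 3 and 4. Both 2 h Silvestrol libraries were thus below every control, and the 1 h library lay between them and the controls. The fitted log2 change at 2 h was -1.37 ± 0.17 (SE, n = 2 per group, edgeR adjusted p = 0.020), from 67 reads in the passage 4 Silvestrol library and 313 in passage 3. GINS1 mRNA was 12.1 RPKM with DMSO and 14.1 RPKM with Silvestrol, so the loss of RFs was not matched by less mRNA in these 2 libraries.

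CDC6 (hg19 chromosome 17, 38444145 to 38459413) showed the same order of libraries. Its RF level was 106 to 129 RPKM in the 4 controls, 69.9 RPKM with Silvestrol at 1 h, and 52.4 and 63.2 RPKM at 2 h. The 3 Silvestrol libraries did not overlap the controls. The fitted log2 change was -0.94 ± 0.14 (SE, n = 2 per group, edgeR adjusted p = 0.026), while its mRNA was 31.6 RPKM with DMSO and 44.7 RPKM with Silvestrol.

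CDT1 (hg19 chromosome 16, 88870185 to 88875666), the partner of CDC6 in loading, moved the other way. In passage 3 its RF level was 74.3 RPKM with DMSO and 105 RPKM with Silvestrol, and in passage 4 it was 48.6 and 83.0 RPKM. The other controls were 70.8 RPKM (untreated) and 73.4 RPKM (DMSO 1 h), so both 2 h Silvestrol values lay above all controls, but the DMSO values differed between passages. The fitted log2 change was 0.74 ± 0.28 (SE, edgeR adjusted p = 0.14), and with the passage as a block it was 0.75 ± 0.10 (edgeR adjusted p = 1.5e-11). Without the block the change was 1.12 without the passage 3 DMSO library (edgeR adjusted p = 0.037), 0.48 without the passage 3 Silvestrol library and 0.44 without the passage 4 DMSO library. CDT1 mRNA was 27.9 RPKM with DMSO and 18.3 RPKM with Silvestrol.

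CDC45, the helicase cofactor, had 49.3 to 55.1 RF RPKM in the controls, 68.6 RPKM with Silvestrol at 1 h, and 74.0 and 72.8 RPKM at 2 h. Its 3 Silvestrol libraries were all above the controls, with a fitted log2 change of 0.55 ± 0.13 (SE, edgeR adjusted p = 0.058, and 1.9e-06 with the block). The other GINS subunits were not called in either fit: the fitted log2 changes were 0.02 for GINS2, 0.23 for GINS3 and 0.03 for GINS4. MCM10, a replication initiation factor, was at 0.04. Among these 8 genes a fall of GINS1 and CDC6 therefore stood beside higher values of CDT1 and CDC45. GINS2 and GINS4 were near 0, and GINS3 was at 0.23 and not called.

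**Figure D2:**
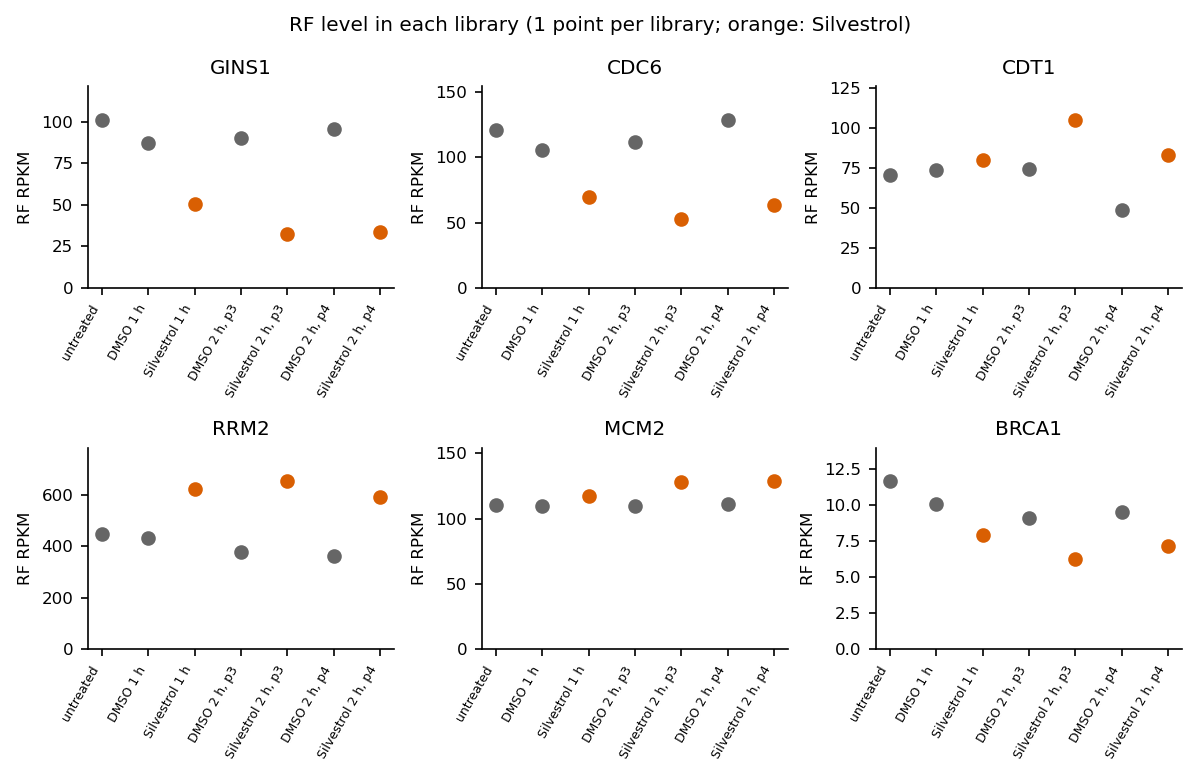
RF level (RPKM, axis from 0) of 6 genes in each of the 7 RF libraries (p3 and p4 are passages 3 and 4), 1 point per library, with controls in grey and Silvestrol in orange. GINS1, CDC6 and BRCA1 are lower in every Silvestrol library than in every control, and RRM2 is higher, while CDT1 and MCM2 are higher than the controls at both times.

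The subunits of the MCM helicase had 110 to 436 RF RPKM as medians of the 4 controls, with MCM2 the lowest and MCM7 the highest, a range of 3.96-fold in a complex that holds 1 copy of each. MCM2 had 109 to 111 RPKM in the controls, 117 RPKM with Silvestrol at 1 h, and 127.7 and 129 RPKM at 2 h. Every Silvestrol library was above every control, by a step of less than 1.5-fold. MCM2 (hg19 chromosome 3, 127317199 to 127341278) changed by 0.34 ± 0.12 on the log2 scale (SE, edgeR adjusted p = 0.13, and 0.00054 with the block). MCM3, MCM4 and MCM5 changed by 0.35, 0.29 and 0.29 and passed only with the block. MCM5 RFs went from 127.9 (DMSO) to 138 RPKM (Silvestrol) in passage 3, and from 135 to 158 RPKM in passage 4. MCM7 changed by -0.23 and was called lower only with the block (edgeR adjusted p = 0.012). MCM6, at 0.14, was not called in either fit.

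MCM mRNA was lower with Silvestrol for 4 of the 6 subunits, MCM2, MCM3, MCM5 and MCM7. MCM2 mRNA was 72.8 RPKM with DMSO and 48.3 RPKM with Silvestrol, and MCM5 mRNA was 87.6 and 60.3 RPKM. The 6 subunits had a median log2 mRNA change of -0.28 against 0.04 over all genes, from 1 library per treatment.

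The origin recognition complex split by subunit. ORC2 (hg19 chromosome 2, 201774893 to 201828424) had 30.1 and 31.7 RF RPKM with DMSO and 19.6 and 22.0 RPKM with Silvestrol at 2 h, and all 4 controls (30.1 to 38.1 RPKM) were above both. Its fitted log2 change was -0.45 ± 0.16 (SE, edgeR adjusted p = 0.13, and 0.0025 with the block). ORC6 had 69.0 and 63.4 RPKM with DMSO and 80.9 and 91.6 RPKM with Silvestrol, and its fitted change was 0.50 ± 0.15 (edgeR adjusted p = 0.10, and 0.00046 with the block). These 2 subunits thus lay on opposite sides. ORC1 was lower and ORC3 was higher with the block, at -0.32 and 0.44 in the fit without it, and the call of ORC1 was lost when the counted length, the transcript length implied by a gene's reads and RPKM in each library, entered as an offset (edgeR adjusted p = 0.025 with the block, and 0.052 with block and offset). ORC4 and ORC5 were at 0.03 and 0.15 and not called. ORC4 RFs were 55.5 and 50.7 RPKM with DMSO and Silvestrol in passage 3, and 61.7 and 59.5 RPKM in passage 4, while its mRNA was 9.40 and 17.0 RPKM. mRNA was at least 1.5-fold higher with Silvestrol for 4 of the 6 subunits (ORC2, ORC4, ORC5 and ORC6), against 18.3% of all genes, from 1 library per treatment.

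Of the polymerase genes, POLE, the catalytic subunit of polymerase epsilon, had 15.8 and 14.0 RF RPKM with DMSO and 19.4 and 19.5 RPKM with Silvestrol at 2 h. Its 2 h Silvestrol values were above all controls (14.0 to 17.2 RPKM), and its log2 change was 0.50 ± 0.15 (SE, edgeR adjusted p = 0.088, and 9.9e-06 with the block). POLA1, PRIM1 and POLD1, the catalytic subunits of polymerase alpha, primase and polymerase delta, were at 0.21, 0.20 and 0.16 and were not called. POLD1 RFs were 47.5 and 45.9 RPKM with DMSO and Silvestrol in passage 3, and 36.2 and 39.7 RPKM in passage 4. No catalytic subunit was called lower.

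PCNA (hg19 chromosome 20, 5095598 to 5107268), the clamp, had the highest RF level of the 47, with 489 to 607 RF RPKM in the controls. It had 445 and 495 RPKM with Silvestrol at 2 h, and 451 RPKM at 1 h. The Silvestrol and control ranges overlapped, the fitted log2 change was 0.02 ± 0.27 (SE, edgeR adjusted p = 0.97), and the sign turned in several other settings. Subunits of the clamp loader again went both ways. RFC5 had 140 and 116 RPKM with DMSO and 189 and 179 RPKM with Silvestrol, and changed by 0.64 ± 0.17 (edgeR adjusted p = 0.074, and 1.3e-09 with the block). Leaving out 1 library at a time gave 0.49 to 0.83 (edgeR adjusted p = 0.045 to 0.37), with a call only without the passage 3 DMSO library. RFC4 had 117 and 120 RPKM with DMSO and 85.1 and 87.5 RPKM with Silvestrol, and changed by -0.33 ± 0.12 (edgeR adjusted p = 0.14, and 0.0054 with the block). RFC1, RFC2 and RFC3 were at -0.04, -0.12 and -0.18 and were not called. RFC4 mRNA was 22.8 RPKM with DMSO and 44.1 RPKM with Silvestrol, the largest mRNA increase of any member.

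Of the RPA subunits, RPA3 had 155 and 143 RF RPKM with DMSO and 207 and 264 RPKM with Silvestrol, above the 4 controls (141 to 167 RPKM). Its fitted log2 change was 0.74 ± 0.34 (SE, edgeR adjusted p = 0.21, and 0.000305 with the block). It was 0.19 without the passage 4 Silvestrol library and 1.16 without the passage 3 one. RPA1 was called lower with the block (-0.29), and RPA2 was at -0.18 and not called. With the counted length as an offset RPA2 was at -0.38 (edgeR adjusted p = 0.24), and it was called lower with the block and that offset (edgeR adjusted p = 0.022). RPA2 RFs were 92.6 and 65.2 RPKM with DMSO and Silvestrol in passage 3, and 82.6 and 55.6 RPKM in passage 4, a larger step than the read counts gave.

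For FEN1, the flap nuclease of Okazaki fragment maturation, the unit set the size of the change. The RPKM fell from 256 to 104 between the DMSO and Silvestrol libraries of passage 3, and from 132 to 67.2 in those of passage 4, log2 changes of -1.30 and -0.97. The read counts gave -0.33 ± 0.16 (SE, edgeR adjusted p = 0.21, and 0.012 with the block). The length over which reads were counted, taken as reads over RPKM, was 1.60 times as long in the Silvestrol as in the DMSO library of each passage, relative to the median gene. With that length as an offset the fitted change was -1.03 (edgeR adjusted p = 0.15), and with the offset and the block -1.01 (edgeR adjusted p = 8.9e-13). LIG1, the ligase that seals the fragments, was at 0.08 and not called.

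RRM2, the regulated subunit of ribonucleotide reductase, had the largest fitted gain of the 47. It had 360 to 448 RF RPKM in the controls, 621 RPKM with Silvestrol at 1 h, and 653 and 591 RPKM at 2 h. The Silvestrol libraries lay above every control. The fitted log2 change was 0.80 ± 0.18 (SE, edgeR adjusted p = 0.052, and 2.6e-15 with the block). The counted length as an offset gave 0.90 (edgeR adjusted p = 0.029), and leaving out 1 library at a time gave 0.61 to 0.95 (edgeR adjusted p = 0.032 to 0.26), with a call only without the passage 4 DMSO library. RRM1, the large subunit, was at 0.10 and not called. RRM2 mRNA was 43.95 RPKM with DMSO and 58.2 RPKM with Silvestrol.

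The checkpoint kinases differed among themselves. ATM (hg19 chromosome 11, 108093558 to 108239826) had 8.72 and 10.8 RF RPKM with DMSO and 5.82 and 6.76 RPKM with Silvestrol, below all 4 controls. Its log2 change was -0.51 ± 0.15 (SE, edgeR adjusted p = 0.091, and 0.00012 with the block). ATR had 8.15 and 7.40 RPKM with DMSO and 9.0003 and 9.46 RPKM with Silvestrol, and changed by 0.37 ± 0.15 (edgeR adjusted p = 0.16, and 0.0069 with the block). ATM and ATR, related kinases, were therefore called in opposite directions with the block. CHEK1 and CHEK2, which act below them, were at 0.21 and -0.13 and not called, and CHEK2 had 29 reads in the passage 4 Silvestrol library.

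The same held for the BRCA genes of recombination repair. BRCA1 (hg19 chromosome 17, 41196311 to 41277500) had 9.08 and 9.49 RF RPKM with DMSO and 6.27 and 7.13 RPKM with Silvestrol, and changed by -0.35 ± 0.16 (SE, edgeR adjusted p = 0.20, and 0.018 with the block). BRCA2 (hg19 chromosome 13, 32889616 to 32973809) had 5.45 and 4.97 RPKM with DMSO and 5.86 and 7.59 RPKM with Silvestrol, and changed by 0.48 ± 0.17 (edgeR adjusted p = 0.13, and 0.00087 with the block). BRCA1 was lower than every control in both passages, whereas BRCA2 overlapped the untreated library (7.09 RPKM).

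PARP1, which senses strand breaks, had 116 and 90.9 RPKM with DMSO and 81.4 and 59.1 RPKM with Silvestrol, and changed by -0.22 ± 0.13 (SE, edgeR adjusted p = 0.30, and 0.046 with the block). Its counted length was 1.15 and 1.16 times as long with Silvestrol in passages 3 and 4, and as an offset this gave -0.40 (edgeR adjusted p = 0.29), and -0.41 with the block (edgeR adjusted p = 0.00024). XRCC5, a subunit of the Ku end-binding complex, and MSH6, of mismatch repair, were called higher only with the block, at 0.23 and 0.29. XRCC6, the other Ku subunit, had 5.50, 9.95, 5.87 and 34.9 RPKM in the 4 controls, and 6.01 RPKM with Silvestrol at 1 h and 15.2 and 24.1 RPKM at 2 h. Its log2 ratio was 1.38 in passage 3 and -0.53 in passage 4. These values rest on 41 to 138 reads a library, whereas XRCC5 had 449 to 515 RPKM in the controls, and no direction is read from them. XRCC6 is counted among the 17 called higher with the block (edgeR adjusted p = 0.024), a call that the counted length offset ended (0.085). In the INK128 table, whose values were made separately, XRCC6 was at 194 FPKM with DMSO.

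Replication machinery and repair genes were set side by side, and the difference between them was not tested. The median fitted log2 RF change was 0.10 over the 37 replication genes and 0.15 over the 10 repair genes, beside -0.01 over all genes tested. Leaving out 1 library at a time gave medians of 0.088 to 0.18 for replication and 0.074 to 0.22 for repair genes, and without the passage 4 Silvestrol library the order turned (0.088 and 0.074). With the block, 8 of 37 replication genes (21.6%) and 3 of 10 repair genes were called with fewer RFs, against 28.1% of all genes, and 12 (32.4%) and 5 with more, against 25.0%. The median log2 mRNA change was 0.06 for replication and 0.31 for repair genes (0.04 over all genes), and the median z-score of translation efficiency (RF over mRNA, given below) was 0.28 and 0.02 (0.03 over all genes). Both 2 h Silvestrol libraries were below all 4 control RF libraries for 16 members (34.0%, against 37.7% of all genes) and above all of them for 11 (23.4%, against 17.2%). The 11 were MCM2, MCM4, MCM5, ORC6, CDT1, CDC45, POLE, RFC5, RPA3, RRM2 and ATR.

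At 1 h, with 1 library per treatment and no test, RFs were at least 1.5-fold lower for FEN1, GINS1, CDC6 and XRCC6. These 4 of 47 members (8.51%) stand beside 21.9% of all genes. The counted length of FEN1 was 1.38 times as long with Silvestrol as with DMSO at 1 h, relative to the median gene. Its RPKM thus fell more than its reads did. XRCC6 rests on 89 reads with DMSO and 41 with Silvestrol at 1 h, and no direction is read from it. No member was at least 1.5-fold higher, against 1.63% of all genes, and the highest were RRM2 (0.53 on the log2 scale), RPA3 (0.52) and CDC45 (0.48). The 1 h libraries are separate from those at 2 h. Of the 11 members with fewer RFs at 2 h by the blocked fit, 10 were below the median of all genes at 1 h, and of the 17 with more, 16 were above it. Of all genes called in that fit, 94.2% and 92.8% lay on these sides. Over the 47 genes the log2 changes at 1 h and at 2 h in passage 4 had a Spearman correlation of 0.79 (0.67 over all genes), and those at 1 h and in passage 3 one of 0.74 (0.78 over all genes), a description across genes that share their libraries.

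mRNA at 2 h was at least 1.5-fold lower for 3 members (6.38%, against 11.8% of all genes), which were XRCC6, CDT1 and MCM2. It was at least 1.5-fold higher for 6 (12.8%, against 18.3% of all genes), which were RFC4, BRCA2, ORC4, ORC2, ORC5 and ORC6. BRCA2 mRNA was 1.58 and 3.01 RPKM with DMSO and Silvestrol. CDT1 and MCM2 combined less mRNA with more RFs, and RFC4 and ORC2 more mRNA with fewer RFs. None of these RF changes passed edgeR's test of all 2 h RF libraries without the block, and all passed with it. The mRNA changes come from 1 library per treatment.

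**Figure D3:**
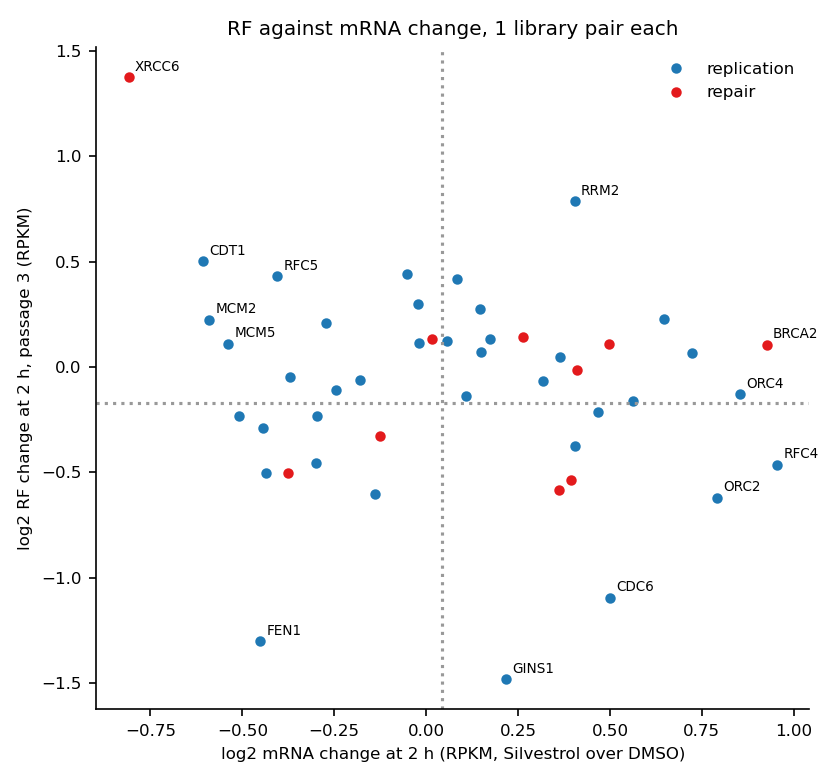
Log2 RF change at 2 h in passage 3 (vertical) against log2 mRNA change at 2 h (horizontal), both from RPKM of 1 library pair, for 37 replication genes (blue) and 10 repair genes (red). Dotted lines are the medians of all genes tested (-0.17 and 0.04). CDT1, RFC5 and MCM2 lie at the upper left, CDC6, GINS1, RFC4 and ORC2 at the lower right, and XRCC6 stands alone at the top with few reads.

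Translation efficiency (TE), the RF level over the mRNA level, combines these changes. As a z-score over all genes from the passage 3 RPKM values, TE was past -1.5 for 0 members, against 6.61% of all genes, and past 1.5 for 1 member (2.13%, against 4.72% of all genes), XRCC6 at 2.54, which was 0.60 with the passage 4 RFs. The lowest z-scores were those of GINS1 (-1.40), CDC6 (-1.30), RFC4 (-1.12), ORC2 (-1.11) and ORC4 (-0.68). After XRCC6 the highest were CDT1 (1.45), RFC5 (1.17), MCM2 (1.15) and MCM5 (0.98). With the passage 4 RFs, CDT1 was at 1.76 and GINS1 at -1.49.

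The edgeR interaction of assay and treatment without the block missed every changed gene when checked on simulated data, so its counts say nothing about single genes. It called 0 members with changed TE, 2 of all genes as reduced (0.019%) and none as increased, with an unadjusted p under 0.05 for 12 members and 2606 genes. DESeq2 called 3 members reduced and 3 increased, against 6.48% and 4.56% of all genes with an adjusted p. The edgeR fit with a passage block gave reduced TE for 8 members (17.0%, against 22.4% of all genes) and increased TE for 10 (21.3%, against 22.6% of all genes). The reduced were GINS1, CDC6, RFC4, ORC2, ATM, ORC4, BRCA1 and RFC1. The increased were XRCC6, CDT1, RFC5, MCM2, MCM5, MCM3, CDC45, POLD1, POLE and RRM2. Log2 TE changes were -1.46 ± 0.22 for GINS1 and -1.32 ± 0.17 for CDC6, and 1.48 ± 0.18 for CDT1 and 1.05 ± 0.16 for MCM2 (SE, edgeR with the block). The blocked fit takes its spread from RF libraries only, since mRNA has 1 library per treatment.

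The 5′ UTRs of the members, the mRNA stretch scanned before the start codon, were compared because eIF4A unwinds such stretches. Their median annotated length was 103 nt against 132 nt over all genes, and their median GC content was 63.0% against 67.6%. An ATG within the 5′ UTR was annotated for 8 members (17.0%), against 38.5% of all genes with a transcript. Tandem CGG repeats of 4 units were found in 0 members, against 6.0% of all genes.

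Among the members, RF changes were ordered by 5′ UTR length. The 16 members with the shortest 5′ UTRs (16 to 66 nt) had a median fitted log2 RF change of 0.28, the 16 in the middle (68 to 132 nt) 0.14, and the 15 longest (139 to 1172 nt) -0.22. All genes in the same length ranges had medians of 0.37, 0.11 and -0.38. With the block, 0 of the 16 shortest were called with fewer RFs and 9 with more, while 8 of the 15 longest were called with fewer and 2 with more. Of all genes in the shortest range, 4.51% were called with fewer and 52.5% with more, and in the longest range 47.4% and 8.72%. The Spearman correlation of length with the fitted change was -0.40 over 47 members and -0.59 over 10273 genes. GINS1 and CDC6 have 148 and 225 nt, and CDT1 and RRM2 have 43 and 60 nt. RPA3 (1172 nt) and CHEK1 (870 nt), whose annotated 5′ UTRs are the longest of the 47, were at 0.74 and 0.21, and the transcript ends used in these cells were not measured.

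**Figure D4:**
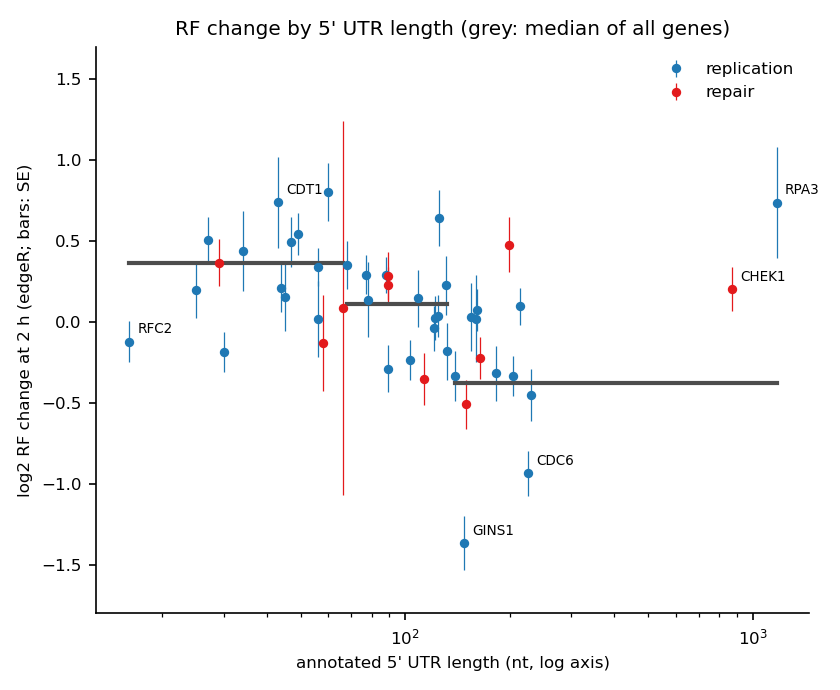
Fitted log2 RF change at 2 h with Silvestrol (edgeR without the block, bars are SE) against annotated 5′ UTR length in nt (log axis) for 37 replication genes (blue) and 10 repair genes (red). Grey lines are the medians of all genes in the same 3 length ranges (0.37, 0.11 and -0.38). Members with short 5′ UTRs lie mostly above 0 and GINS1 and CDC6 lie among the longer ones, while RPA3 and CHEK1 stand apart at the right, and the long bar is XRCC6.

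With INK128 the RFs of every member changed by less than 1.5-fold. No member had RFs at least 1.5-fold lower, against 2.97% of all genes, or at least 1.5-fold higher, against 3.10% of all genes. The log2 RF changes of the 47, from FPKM of 1 library pair, ranged from -0.42 for CDT1 (19.1 and 14.3 FPKM with DMSO and INK128) to 0.32 for RFC4 (33.7 and 42.2 FPKM). GINS1 had 6.06 and 5.31 FPKM, CDC6 26.3 and 24.0 FPKM, and RRM2 70.1 and 62.0 FPKM. CDT1, which had more RFs with Silvestrol, thus had the lowest ratio with INK128, and the difference between drugs was not tested.

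Total RNA FPKM was lower with INK128 for genes in general, with a median log2 change of -1.16 over the 4070 genes that passed the filter and -1.26 over the 24 members that did. TE z-scores, which are relative to all genes, were past -1.5 for 0 of these 24 members, against 6.66% of all genes, and past 1.5 for 0, against 1.08% of all genes. The lowest were CDT1 (-0.59), POLD1 (-0.36) and RRM2 (-0.06), and the highest CDC6 (1.14), RPA2 (1.05) and ORC4 (1.00). The total RNA values behind them are low, 1.18 and 0.32 FPKM for CDC6, 2.03 and 0.73 FPKM for RPA2, 1.04 and 0.41 FPKM for ORC4, and 1.43 and 0.66 FPKM for CDT1. POLD1 RFs were 18.4 and 17.4 FPKM, RPA2 RFs 36.96 and 42.9 FPKM, and ORC4 RFs 5.41 and 6.67 FPKM.

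**Figure D5:**
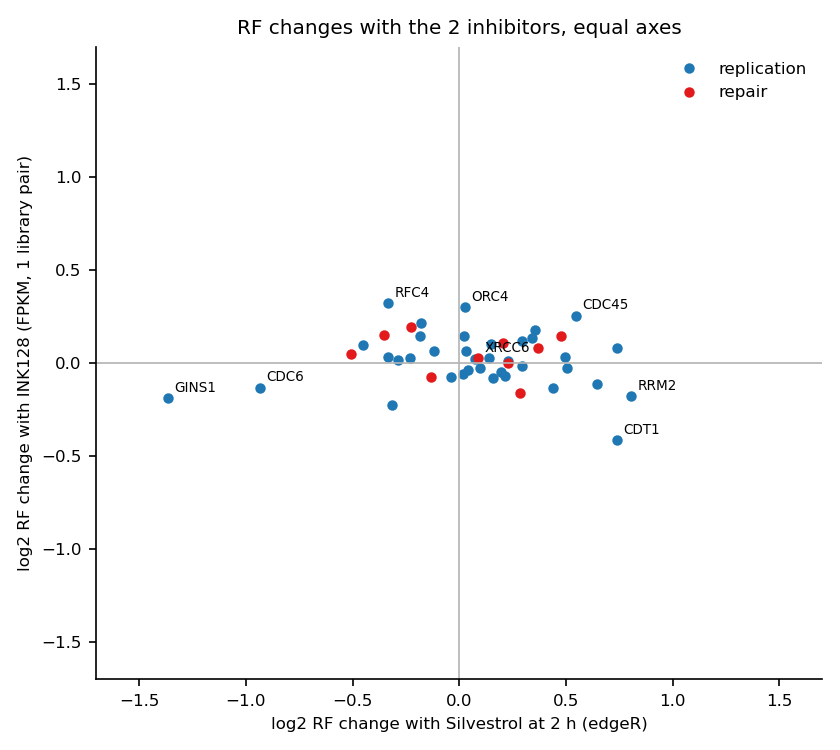
Log2 RF change with INK128 (vertical, FPKM of 1 library pair) against the fitted log2 RF change with Silvestrol at 2 h (horizontal, edgeR), on equal axes, for 37 replication genes (blue) and 10 repair genes (red). The points spread from -1.37 to 0.80 along the Silvestrol axis and from -0.42 to 0.32 along the INK128 axis.

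Other genes of the same pathways were examined from wider lists. Of 38 further replication genes, 37 were tested at 2 h, and 6 fell (16.2%, against 7.73% of all genes) and 3 rose (8.11%, against 2.22%) by edgeR without the block. With the block 8 were lower (21.6%, against 28.1%) and 13 higher (35.1%, against 25.0%). MCM8, a helicase of recombination, fell by 1.77 on the log2 scale (edgeR adjusted p = 0.017), followed by POLA2 (-0.96), ASF1B (-0.94), CHAF1A (-0.85) and MCMBP (-0.82), and DUT, which removes dUTP, rose by 0.69. Of 56 further repair genes, 54 were tested, and 7 fell (13.0%, against 7.73% of all genes) and 3 rose (5.56%, against 2.22%). With the block 15 were lower (27.8%, against 28.1%) and 19 higher (35.2%, against 25.0%). RAD17, the checkpoint clamp loader, fell by 1.97 on the log2 scale (edgeR adjusted p = 0.042), and others that fell were XRCC3 (-1.59), RBBP8 (-1.43), EXO1 (-1.28) and RECQL (-1.22). The RF level of RAD17 was low, 3.53 and 4.25 RPKM with DMSO and 0.98 and 0.56 RPKM with Silvestrol at 2 h in passages 3 and 4. XRCC3 and RBBP8 act in recombination with BRCA1 and BRCA2. The median fitted change was 0.04 over the further replication genes and 0.15 over the further repair genes.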

How the data were processed

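RFs and mRNA of the Silvestrol experiment were deposited by the authors as read counts per transcript (uniquely mapped reads, hg19) and as RPKM, which leaves out positions with non-unique reads. The INK128 experiment was deposited by the authors as FPKM without counts, so its depth is unknown. CASAVA 1.8.1 and Bowtie2 are named in the submitters' processing notes. Columns of the authors' means, TE, changes and scores were not used, and 0 columns of per-sample values were left out.

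Repeated lines were dropped, and 1 entry per symbol was kept. Genes needed a mean RPKM over the passage 3 libraries of at least 1 (RF) and 0.3 (mRNA), or an FPKM of at least 1 in both DMSO libraries for INK128. RF counts of 2 DMSO and 2 Silvestrol libraries entered a quasi-likelihood test (edgeR 4.0.16, R 4.3.3, TMM scaling, Benjamini-Hochberg over all genes, threshold 0.05), and TE as the interaction of assay and treatment over 6 libraries. SEs come from these models. DESeq2 1.42.0, other filters, pseudocounts, a counted length offset and leaving out each library were alternatives. RPKM and FPKM ratios had no pseudocount, and folds of 1.5 were counted where there was 1 library per group.

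The passage deviations of DMSO and Silvestrol correlated with r = 0.714 over 10507 genes, and the labels give each 2 h RF library of either treatment passage 3 or 4, taken here as a shared batch that pairs the samples. Whether a pair came from 1 culture is not given in the sources used here. The tests were checked on simulated data with log2 changes of 2 in 200 genes and no passage effect. There the TE test without the block missed every changed gene. The other fits recovered most and also called 4 to 14 unchanged genes. Smaller changes, such as most of those of the members, and a passage effect were not simulated, so the check says nothing about calls of that size.

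Annotated 5′ UTRs are those of GENCODE 44 on GRCh37 (99.4% MANE Select). The members and lists were chosen with earlier results of these data known. Values by library are given for up to 12 members past the RF test without or with the block and with the largest change, the 5 lowest and 5 highest TE z-scores, the 3 lowest and 3 highest with INK128, and BRCA1, BRCA2, ATM, ATR, PARP1, PCNA and MCM2 whatever their values. FEN1 was added after its values were seen. Some items that these rules would name are not reported here.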

Additional observations from a re-analysis of the deposited data

Results flagged for a closer look

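RPKM ratios at 1 h and 2 h had opposite signs in every library pair for 4 members, and the difference was not tested. Read against the medians of all genes (-0.18 at 1 h, -0.17 and -0.15 at 2 h), MCM5 and GINS3 kept 1 sign. The log2 RF changes at 1 h were -0.0249 for MCM5, -0.0355 for GINS3, 0.0915 for RFC1 and 0.26 for CHEK2. At 2 h in passages 3 and 4 they were 0.11 and 0.22 for MCM5, 0.11 and 0.09 for GINS3, -0.16 and -0.16 for RFC1, and -0.33 and -0.27 for CHEK2. Against the untreated library the 1 h changes were 0.06 for GINS3 and -0.11 for RFC1, which gave both genes the sign of 2 h. CHEK2 had 451, 181, 82 and 29 reads in the DMSO and Silvestrol libraries of passages 3 and 4.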

How the results depend on the processing

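Members with fewer RFs at 2 h numbered 2, and 11 with the passage as a replicate block, also with the counted length offset added (chosen after seeing the data). Those with more RFs numbered 0, and 17 with the replicate block, 16 with the block and that offset, 3 with DESeq2, and 1 without a minimum RPKM, with a minimum RPKM of 5 and with the offset alone. Leaving out 1 library gave 0 to 2 members with fewer RFs and 0 to 2 with more. The 0 with fewer RFs came without either Silvestrol library. Reduced and increased TE numbered 0 and 0, 8 and 10 with the replicate block, 3 and 3 with DESeq2, and 0 to 2 in each direction without 1 library (the 2 came without the DMSO passage 3 library). TE z-scores below -1.5 numbered 0, and 1 with a pseudocount of 0.5 or a minimum RPKM of 5, and those above 1.5 numbered 1, and 2 with that pseudocount. At 1 h the count of members at least 1.5-fold higher was 0, and 1 against the untreated library. The log2 RF change of PCNA (0.02) was -0.0042 with a minimum RPKM of 5, -0.077 with the offset, -0.066 with the block and offset, -0.14 and -0.29 as RPKM ratios of passages 3 and 4, and -0.29 to 0.33 without 1 library. Between the blocked fits without and with the offset, ORC1 and XRCC6 lost their calls and RPA2 gained one. The cause was not tested. The passage 4 Silvestrol RF library has 2652423 reads, and mRNA has 1 library per treatment, which limits the precision.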
